A study of Mus musculus with 4 samples.

Results

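The epidermal differentiation complex is a run of genes on mouse chromosome 3 whose products build the outer, cornified layers of the epidermis and bind calcium in epithelial cells. Its members were taken here as the protein-coding genes of the RefSeq table for GRCm38 on chromosome 3 whose symbols begin with Lce, Sprr or S100a, together with Flg, Flg2, Hrnr, Rptn, Tchh, Tchhl1, Lor, Ivl, Crct1, Kprp and Smcp. That gave 61 of 21887 protein-coding genes, spread over 3.05 Mb from S100a1 to S100a10 (chr3:90511034-93564645, mm10).

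As background, keratinocytes that leave the basal layer switch on these genes in turn. Loricrin (Lor), involucrin (Ivl), the small proline-rich proteins (Sprr) and the late cornified envelope proteins (Lce) are cross-linked by transglutaminases into the cornified envelope. Filaggrin (Flg), hornerin (Hrnr), repetin (Rptn), trichohyalin (Tchh) and their relatives join an S100-type calcium-binding domain to long repeats and are called S100-fused proteins. The S100a genes encode small calcium-binding proteins, many of them expressed well beyond terminally differentiating epidermis. Hair follicle stem cells reside in the bulge, rest for long periods and do not cornify.

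Open chromatin was measured by ATAC-seq, in which the Tn5 transposase inserts adapters into accessible DNA. Female mice aged 30 postnatal days gave the back skin, from which cells with H2BGFP, CD34 and CD49f but without Sca-1 were sorted. The Foxc1 knockout carried K14-H2BGFP, K14Cre and Foxc1 fl/fl, and the control carried K14-H2BGFP and Foxc1 fl/fl without Cre. The reporter and the floxed alleles were thus shared by both genotypes, and the Cre of the knockout is named for the Krt14 (K14) promoter. Each genotype was 1 library sequenced in 2 runs, and the sources used here do not say how many animals it came from. All 4 runs share a single list of 74777 accessible regions (peaks) with coordinates only, so no peak could be given to a genotype, the knockout and the control were not compared, and nothing below is tested.

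Markers of the sorted cells had peaks throughout. Of 9 hair follicle stem cell markers, 9 had a peak within 1 kb of a gene end, as did 5 of 6 basal keratinocyte markers, 4 of 7 of differentiating keratinocytes (Calm4, Ivl, Lor and Sbsn) and 2 of 4 of sebaceous gland. Markers of immune cells and of endothelium had 0 of 4 each, and those of melanocytes (Dct) and dermal fibroblasts (Col1a1) 1 of 4 each. The share over all protein-coding genes was 57.6%. Counted over the gene and the 1 kb on each side, however, a peak was present at 3 of 4 endothelial markers (Pecam1 with 5, Cdh5 with 2 and Emcn with 1) and 3 of 4 fibroblast markers, against 0 of 4 of immune cells and 1 of 4 of melanocytes. By the same count it was present at 9 of 9 stem cell, 6 of 6 basal, 4 of 7 differentiating and 3 of 4 sebaceous markers. The share over all protein-coding genes was 68.7%, so counts near it tell little about the cells. In a bulk list a peak may come from a fraction of the sorted cells, and the share of cells behind a peak is unknown. Read depth is unknown as well, so a gene without a peak is one where no peak was detected in this list.

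Most genes of the complex had no peak in these stem cells, and those that did were concentrated among the S100a genes. A peak shared at least 1 base with the gene or the 1 kb on each side at 25 of 61 members, leaving 36 with none; over all protein-coding genes 68.7% had such a peak. A peak lay within 1 kb of either gene end at 22 members (36.1%), against 57.6% of all protein-coding genes. A start was annotated in the RefSeq promoter table for 55 members, and 15 of them (27.3%) had a peak within 1 kb of it, against 58.3% of the 17492 protein-coding genes with an annotated start. The median member had 0 peaks at the gene or within 1 kb and the median protein-coding gene had 1. Counts over the gene search a longer stretch at longer genes. Median gene length was 1.85 kb for members and 17.2 kb for all protein-coding genes. S100a14, S100a2, Lce1f, Kprp, Crct1 and S100a10 had no entry in the promoter table and were described by their gene bounds.

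The families differed in how many genes were open. Peaks at the gene or within 1 kb were present at 13 of 15 S100a genes, 4 of 14 Sprr genes, 2 of 21 Lce genes, 1 of 6 S100-fused genes and 5 of 5 of Lor, Ivl, Crct1, Kprp and Smcp. In the same order, median gene lengths were 5.3, 1.7, 1.7, 10.3 and 2.9 kb. The median distance from an annotated start to the nearest peak was 0 kb for S100a genes, 8.61 kb for Sprr genes, 17.1 kb for Lce genes and 12.3 kb for S100-fused genes, and it was 0 kb for all protein-coding genes with a start. Of the 46 members that are not S100a genes, 11 (23.9%) had an end peak. That share lay near the 30.2% of 53 keratin genes and above the 7.14% of 56 keratin-associated protein genes, which are also tandem families of epidermis and hair; these differences were not tested. A peak at the gene or within 1 kb was present at 26.1% of these 46 members, 43.4% of keratin genes and 7.14% of keratin-associated protein genes. Their median gene lengths were 1.70, 7.07 and 0.833 kb.

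**Figure D1:**
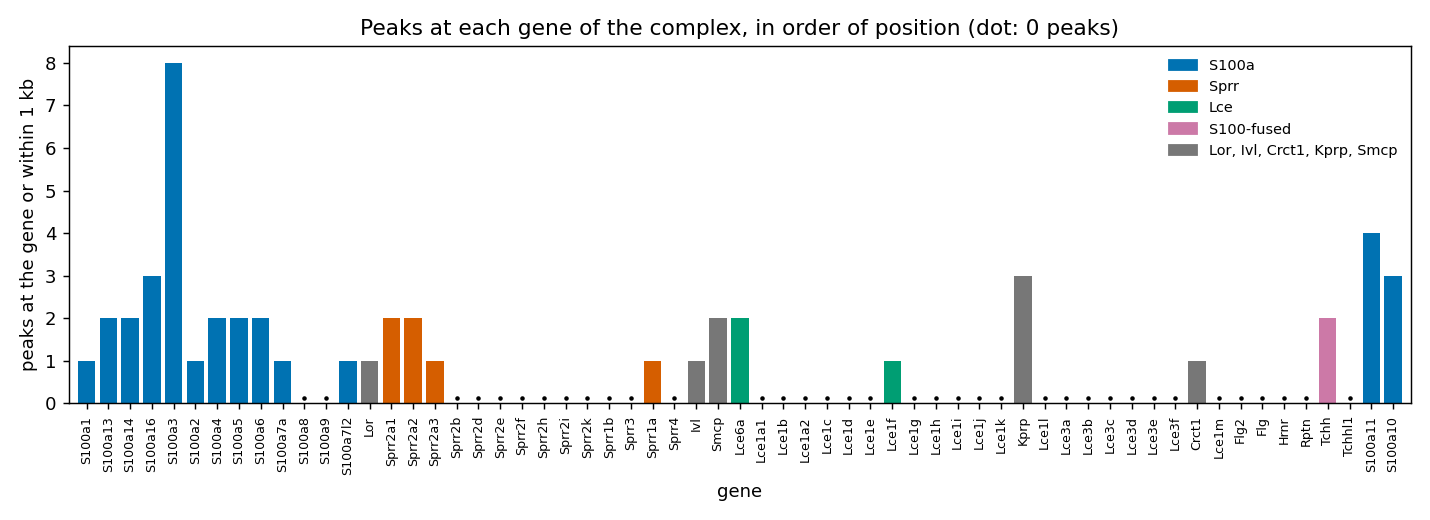
Bars give the number of peaks that share a base with each gene or the 1 kb on each side of it, with the 61 genes in order of position along chromosome 3 and coloured by family; a dot marks 0 peaks. S100a genes at the left and right ends hold most of the peaks, S100a3 has 8, and the Lce genes and Sprr2b to Sprr3 are almost all at 0.

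The map of peaks fell into 3 blocks when members with no more than 300 kb between neighbours were joined. The first ran from S100a1 to S100a9 over 184.7 kb with 12 members and 21 peaks, or 11.4 peaks per 100 kb. S100a7l2 stood alone. The third ran from Lor to S100a10 over 1484 kb with 48 members and 115 peaks, or 7.75 peaks per 100 kb. Chromosomes 1 to 19 and X together carried 2.86 peaks per 100 kb. Peak density was thus 3.98 times that of the genome in the first block and 2.71 times in the third, and 2.46 times when the third was ended at Tchhl1, before S100a11 and S100a10.

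**Figure D2:**
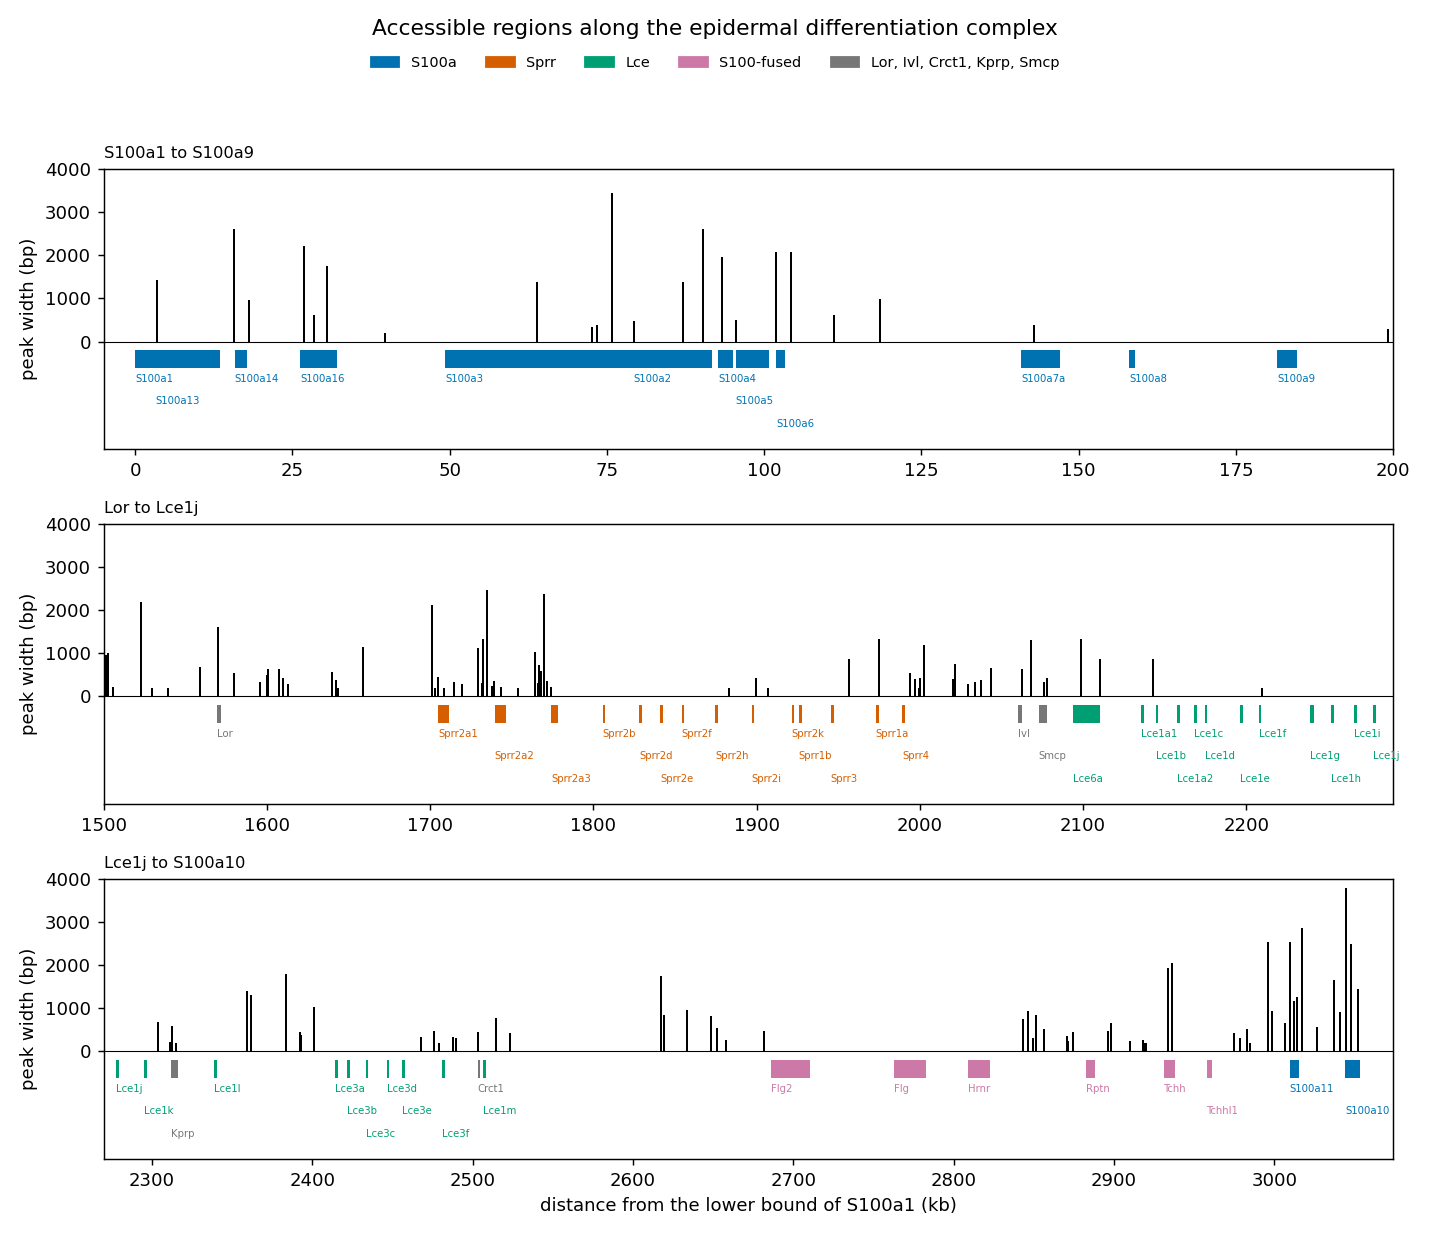
Vertical lines are peaks, at their midpoint and with their width in bp as height, and coloured boxes are the genes of the complex, against distance in kb from the lower bound of S100a1. The sparse ground around S100a7l2, between S100a9 and the neighbourhood of Lor, is not drawn; S100a2 lies inside the bounds of S100a3 and S100a1 overlaps S100a13.

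The S100a genes next to S100a1 were open at their starts. S100a1 and S100a13 lie head to head and overlap, and a single peak of 1415 bp (chr3:90513729-90515143) covered both starts. S100a14 had peaks of 2615 and 955 bp, the first covering 62.6% of the gene. S100a16 had 3 peaks, of 2213, 614 and 1749 bp, and the first and last covered its 2 annotated starts. At S100a1, S100a13 and S100a16 every start in the promoter table thus lay under a peak.

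S100a3, a gene of the hair cuticle, had the most peaks of any member, 8 at the gene or within 1 kb. Of these, 7 shared a base with S100a3. Its bounds in the gene table span 42351 bp and contain S100a2, whose only peak (476 bp) is among the 8. Its 4 annotated starts were each covered by a peak, the widest of them 3428 bp (chr3:90585152-90588579), the second widest of the complex. S100a4, first described in metastatic cells, had a peak of 1959 bp over its start that covered 69.4% of the gene. That peak is also among the 8 counted at S100a3, with which it shares no base. S100a6, calcyclin, had a peak of 2066 bp over its start that covered 72.7% of the gene, and a second of 2079 bp at the other end. S100a5, between S100a4 and S100a6, had peaks at both ends that it shares with these neighbours, and its own annotated start lay 1762 bp from the nearest peak.

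The same block closed towards S100a9. S100a7a, the mouse relative of psoriasin, had a single peak of 381 bp, 143 bp upstream of its start. S100a8 and S100a9, which encode the subunits of calprotectin and are abundant in neutrophils and in inflamed epidermis, had none, and their starts lay 14912 and 14389 bp from the nearest peak. Both sat in a stretch of 55.95 kb without a peak. S100a7l2 had a single peak of 236 bp inside the gene, 6759 bp upstream of the start that the promoter table lists.

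At the opposite end of the complex, S100a11 and S100a10, genes of partners of annexins, lay in the 100 kb bin with the most peaks of the complex. The 44.15 kb from S100a11 to S100a10 held 10 peaks over 40.7% of its length, while peaks cover 2.25% of chromosomes 1 to 19 and X. S100a11 had 4 peaks, of 2533, 1165, 1264 and 2846 bp, the first over its start. S100a10 had 3 peaks, of 3771, 2491 and 1443 bp, and that of 3771 bp (chr3:93553556-93557326) was the widest of the complex. The 5 widest peaks of the complex all lay at S100a genes: S100a10, S100a3 for 2 of them, S100a11 and S100a14. The 26 peaks at S100a genes had a median width of 1429 bp, the 19 at other members 438 bp, and the whole list 587 bp.

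Between these ends, few envelope genes had a peak on the start. The promoters that show this best are given here from RefSeq (GRCm38.p6), from 250 bases before the start to 50 after it, on the strand of the gene and 5′ to 3′. Capitals mark 7 short motifs found on either strand, some of which overlap. A TATA box was sought as TATAAA, an AP-1 motif as TGANTCA and a forkhead motif as TGTTTAC. The so-called GC box was sought as GGGCGG, the motif of Kruppel-like factors as GGGNGTG, the core of p53 family sites as ACATGT, and the remaining one was CCAAT. S100a11 (chr3:93520246-93520545, plus strand), Sprr1a (chr3:92485832-92486131, minus strand) and Ivl (chr3:92573686-92573985, minus strand) are shown because a peak covered 100% of each window.
S100a11: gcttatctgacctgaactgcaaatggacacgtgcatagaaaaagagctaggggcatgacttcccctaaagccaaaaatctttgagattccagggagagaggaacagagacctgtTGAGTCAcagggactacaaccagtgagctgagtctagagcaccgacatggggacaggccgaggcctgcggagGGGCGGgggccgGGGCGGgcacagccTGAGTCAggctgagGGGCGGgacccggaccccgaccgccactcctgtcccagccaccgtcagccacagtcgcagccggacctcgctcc
Sprr1a: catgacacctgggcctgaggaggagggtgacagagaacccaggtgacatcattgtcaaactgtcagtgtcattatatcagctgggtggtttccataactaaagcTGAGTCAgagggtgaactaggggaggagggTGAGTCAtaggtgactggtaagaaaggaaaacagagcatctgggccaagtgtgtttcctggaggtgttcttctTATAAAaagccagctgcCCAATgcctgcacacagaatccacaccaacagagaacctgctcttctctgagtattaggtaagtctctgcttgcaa
Ivl: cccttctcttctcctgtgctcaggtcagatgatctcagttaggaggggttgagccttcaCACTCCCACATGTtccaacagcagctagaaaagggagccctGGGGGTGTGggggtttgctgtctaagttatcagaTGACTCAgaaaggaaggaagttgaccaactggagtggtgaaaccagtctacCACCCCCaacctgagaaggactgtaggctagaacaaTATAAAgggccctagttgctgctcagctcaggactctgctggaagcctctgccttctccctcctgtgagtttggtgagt

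Lor (chr3:92083093-92083392, minus strand), Sprr2e (chr3:92351893-92352192, plus strand), Flg (chr3:93273296-93273595, plus strand) and Lce1a1 (chr3:92648258-92648557, minus strand) are shown because no peak overlapped the window (0% covered).
Lor: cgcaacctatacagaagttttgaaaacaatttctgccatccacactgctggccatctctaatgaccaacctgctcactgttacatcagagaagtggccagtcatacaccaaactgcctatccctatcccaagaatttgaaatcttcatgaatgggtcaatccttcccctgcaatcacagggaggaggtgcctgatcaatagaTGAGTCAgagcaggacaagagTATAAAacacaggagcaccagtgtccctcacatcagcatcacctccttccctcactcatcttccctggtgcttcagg
Sprr2e: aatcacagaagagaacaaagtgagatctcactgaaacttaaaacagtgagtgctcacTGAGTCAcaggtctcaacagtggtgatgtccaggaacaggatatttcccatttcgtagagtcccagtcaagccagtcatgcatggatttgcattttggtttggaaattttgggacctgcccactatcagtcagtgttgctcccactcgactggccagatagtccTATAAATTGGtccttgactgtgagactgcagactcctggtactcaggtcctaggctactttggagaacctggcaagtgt
Flg: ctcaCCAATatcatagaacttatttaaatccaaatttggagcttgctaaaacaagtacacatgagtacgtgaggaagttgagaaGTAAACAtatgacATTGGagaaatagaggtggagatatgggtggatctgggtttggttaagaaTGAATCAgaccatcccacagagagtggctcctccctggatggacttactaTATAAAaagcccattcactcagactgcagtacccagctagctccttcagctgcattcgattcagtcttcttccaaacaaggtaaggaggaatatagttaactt
Lce1a1: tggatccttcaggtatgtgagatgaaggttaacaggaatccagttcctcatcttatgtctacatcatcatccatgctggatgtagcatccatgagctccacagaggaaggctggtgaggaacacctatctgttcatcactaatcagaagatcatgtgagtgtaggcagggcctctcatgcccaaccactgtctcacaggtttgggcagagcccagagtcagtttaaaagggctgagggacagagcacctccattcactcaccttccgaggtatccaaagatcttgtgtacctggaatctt

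The 5 genes outside the large families all had a peak, but not all at the start. Ivl, involucrin, had 1 peak of 626 bp that covered its start. Smcp, named for a cysteine-rich protein of sperm mitochondria, had a peak of 426 bp over its start and one of 322 bp inside the gene. Lor, loricrin, had 1 peak of 1601 bp that covered 55.7% of the gene and began 1009 bp downstream of the start, just beyond the 1 kb window. Kprp, keratinocyte proline-rich protein, had 3 peaks of 225, 595 and 200 bp, and Crct1 1 peak of 438 bp inside the gene. For Kprp and Crct1 the gene ends could not be assigned to start and finish.

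Among the Sprr genes, Sprr1a had a peak of 1324 bp (chr3:92485542-92486865) over its start, the widest at any Sprr gene. Sprr2a1, Sprr2a2 and Sprr2a3 had peaks of 460, 363 and 223 bp that ended 55, 180 and 267 bp upstream of their starts. The other 10 Sprr genes had no peak at the gene or within 1 kb. The nearest peak to a start lay 2629 bp away at Sprr2i and 4469 bp away at Sprr4, and the farthest was 54103 bp away at Sprr2d. Sprr1b, a close relative of Sprr1a in name and product, was 20707 bp from a peak. From Sprr2b to Sprr3, 142.0 kb with 9 genes held 3 peaks, or 2.11 per 100 kb.

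Nearly all Lce genes lacked a peak. Lce6a had 2 peaks, of 867 bp over its start and 1327 bp inside the gene. Lce1f had a single peak of 200 bp just beyond its upper bound, the smallest width in the list, shared by 4873 peaks. The remaining 19 Lce genes had none at the gene or within 1 kb. Starts of Lce3f and Lce1b lay 2266 and 2459 bp from a peak, and that of Lce1h lay 44482 bp away. The promoter of Lce6a had 54.6% identity to its closest relative, the lowest of its family, against a median of 73.3% over the 20 Lce promoters. Values were nearly as low at Lce1m (55.1%), Lce1l (56.2%), Lce3a (59.5%) and Lce3b (59.7%), which had no peak.

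Of the S100-fused genes, Tchh, the trichohyalin gene of the inner root sheath and medulla of hair, had peaks of 1918 and 2039 bp. Both lay inside the gene, the first beginning 1200 bp downstream of the start, and they covered 28.4% and 30.2% of it. Flg2, Flg, Hrnr, Rptn and Tchhl1 had none. Flg, filaggrin, had the most distant peak of any member with a start, 80269 bp away. Flg2, Flg and Hrnr lay together in 160.97 kb without a peak (chr3:93192845-93353814), the longest peak-free stretch of the complex that holds a whole member.

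**Figure D3:**
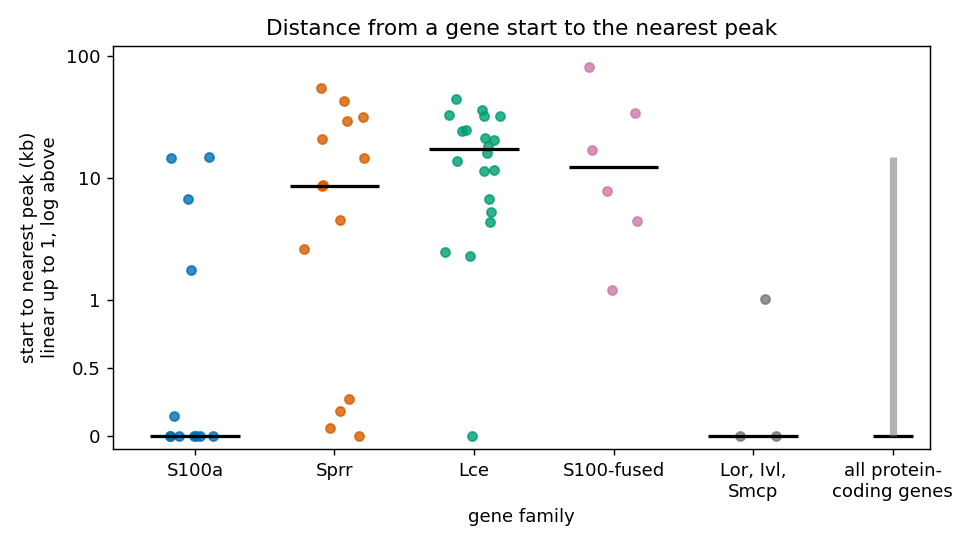
Each point is a gene with an annotated start, placed by the distance in kb from that start (the closest, where a gene has several) to the nearest peak, on an axis that is linear to 1 kb and logarithmic above. Black lines are medians, and the grey bar is the quartile range of all protein-coding genes with a start; the Lce and S100-fused medians are 17.1 and 12.3 kb, and the S100a median is 0.

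Other stretches without a peak also held whole groups of envelope genes. Sprr2a3 through Sprr2h, 6 genes, lay in 109.2 kb without a peak. Lce1g through Lce1k, 5 genes, lay in 94.0 kb, Lce3a through Lce3e, 5 genes, in 66.2 kb, and Lce1b through Lce1f, 6 genes, in 65.9 kb. Sprr2a3 and Lce1f lie at the edges of their stretches, and the peaks within 1 kb of them bound those stretches. The 3 longest stretches, of 318.5, 274.9 and 213.2 kb, lay from S100a7l2 to Lor and held no whole member, the first of them beginning inside S100a7l2. Stretches of more than 100 kb without a peak numbered 5959 on chromosomes 1 to 19 and X, where the median distance between neighbouring peaks was 11.9 kb.

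Although the genes were mostly without peaks, the ground between them was not. Of the 151 peaks in the complex, 106 shared no base with a member or the 1 kb around it. From Lor to Tchhl1, 79 of 98 peaks were of this kind and 19 were at members. Protein-coding genes and their 1 kb flanks made up 21.1% of this stretch and held 22.4% of its peaks, so the split followed the share of ground. Outside all protein-coding genes and their 1 kb flanks, this stretch carried 6.92 peaks per 100 kb, against 2.15 on chromosomes 1 to 19 and X, a ratio of 3.22. Within protein-coding genes and their flanks it carried 7.49, against 3.89, a ratio of 1.93. The S100a1 to S100a9 block carried 18.4 peaks per 100 kb in genes and flanks and 3.45 elsewhere, ratios to the genome of 4.74 and 1.60, so there the higher ratio was that of the genes. The median width was 1165 bp for the 45 peaks at members and 472 bp for the 106 between members. Of those at members, the 26 at S100a genes had a median of 1429 bp and the 19 at other members one of 438 bp, below that of the peaks between members. Their median distance to the nearest member was 12.9 kb, and 42 of 106 lay within 10 kb.

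These peaks were gathered in some of the 58 intervals between neighbouring members and missing from others. Peaks were found in 23 intervals and none in 35, and the 5 intervals with the most held 52 of the 112 peaks in intervals. The interval from Lor to Sprr2a1 (132.7 kb) had 14, which made it the first. That from Sprr4 to Ivl (70.4 kb) had 11, of 200 to 1198 bp, or 15.6 per 100 kb, and held no annotated gene of any kind. S100a7l2 to Lor (972.8 kb) had 10, or 1.03 per 100 kb. Lce1m to Flg2 (178.2 kb), which contains the cornulin gene Crnn, had 9.

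Next came 3 intervals with 8 peaks each, Sprr2a1 to Sprr2a2, Sprr2a2 to Sprr2a3, and Hrnr to Rptn (60.1 kb, 13.3 per 100 kb). Beyond Hrnr most intervals held peaks. Rptn to Tchh had 6 peaks in 42.9 kb and Tchhl1 to S100a11 had 7 in 48.5 kb. The interval from Flg2 to Flg and that from Flg to Hrnr had 0. Within the Lce genes, the interval between Lce1l and Lce3a (74.0 kb) had 6 peaks, of which 1 lay at 2310050C09Rik.

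In bins of 100 kb the highest counts were 22 at S100a11 and S100a10, 21 at the Sprr2a genes, 15 at Sprr4, Ivl and Smcp, and 14 at S100a1 through S100a3. The median bin of chromosomes 1 to 19 and X had 2 peaks (quartiles 0 and 4). The bin of Sprr2b, Sprr2d, Sprr2e, Sprr2f and Sprr2h had 1 peak, immediately beside the bin with 21.

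The 2 intervals between the Sprr2a genes had a similar layout of peaks. Their sequences were not compared. Sprr2a2 begins 34812 bp after Sprr2a1, and Sprr2a3 34657 bp after Sprr2a2. Of 9 peaks from Sprr2a1 to the next copy, 7 had a peak at the same distance from Sprr2a2, within 100 bp. The widest pair were 2460 bp (chr3:92244884-92247343) and 2368 bp (chr3:92279765-92282132). Sprr2a3 had only the peak before its start, and none over the following 34657 bp, a stretch that takes in Sprr2b.

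The promoters of Sprr2a1 (chr3:92215585-92215884) and Sprr2a2 (chr3:92250397-92250696), both on the plus strand, were identical over all 300 bases and that of Sprr2a3 (chr3:92285054-92285353, plus strand) shared a run of 272 of them, shown here because reads from such copies may map to several places.
Sprr2a1: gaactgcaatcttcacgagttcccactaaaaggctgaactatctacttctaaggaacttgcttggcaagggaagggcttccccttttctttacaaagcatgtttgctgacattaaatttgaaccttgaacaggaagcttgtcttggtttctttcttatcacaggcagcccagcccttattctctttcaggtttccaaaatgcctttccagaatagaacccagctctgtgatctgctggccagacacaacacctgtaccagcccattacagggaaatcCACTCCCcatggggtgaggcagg
Sprr2a3: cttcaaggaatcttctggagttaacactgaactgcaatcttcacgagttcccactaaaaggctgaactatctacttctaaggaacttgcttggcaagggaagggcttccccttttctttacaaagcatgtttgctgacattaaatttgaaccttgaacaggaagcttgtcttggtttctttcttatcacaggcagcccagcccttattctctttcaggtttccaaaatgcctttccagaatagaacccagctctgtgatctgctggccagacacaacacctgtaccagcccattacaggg
The sources used here do not give the treatment of reads that map to several places, so the peaks of these copies are uncertain and may stand for fewer open sites than they number. Outside the Sprr2a genes, the longest identical run between the closest promoters was 45 bases for Sprr and 56 for Lce genes. The part of sequence likeness in the missing peaks of the other Sprr and Lce genes was not tested.

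**Figure D4:**
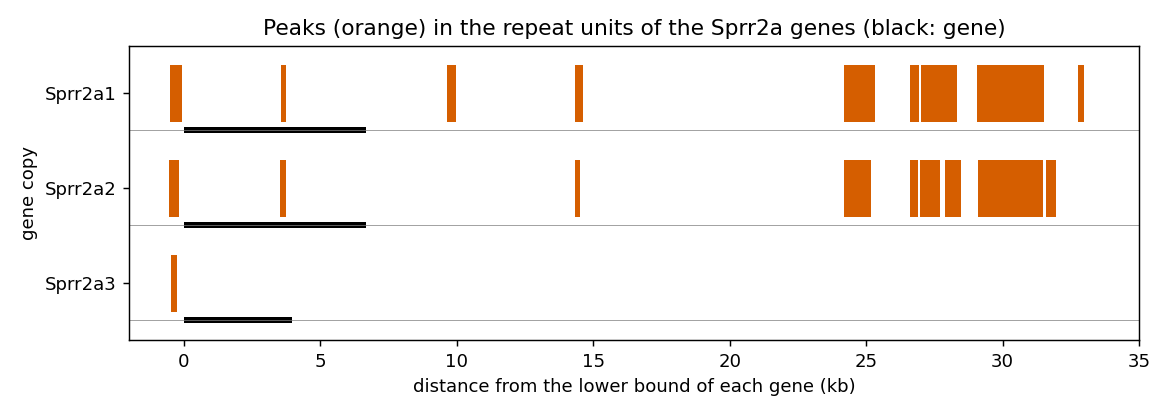
Orange boxes are peaks, drawn to scale against the distance in kb from the lower bound of Sprr2a1, Sprr2a2 and Sprr2a3. Black bars are the genes. Each row runs to the next copy, and that of Sprr2a3 over 34657 bp, which takes in Sprr2b. The title calls these stretches repeat units, but their sequences beyond the promoters were not compared. Of the 9 peaks in the Sprr2a1 stretch, 7 recur within 100 bp in the Sprr2a2 stretch, while the Sprr2a3 stretch has 1.

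The promoters of the complex shared sequence features that the choice of genes did not use. Their median G and C content was 47.0%, against 56.3% for all 21263 promoters of protein-coding genes in the table. The CpG dinucleotide was at 0.0900 of the frequency its bases would give (median of 59 promoters), against 0.567 for all promoters. A GC box was present in 5 of 59 (8.47%), against 46.2% of all promoters, and 4 of the 5 belonged to S100a genes. S100a promoters had a median G and C content of 53.5%, Lce promoters 47.0% and Sprr promoters 45.0%. Low CpG was not limited to genes without peaks, as the median was 0.0900 for the 19 promoters of genes with a start peak and 0.0902 for the 40 of genes without one.

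A TATA box was common and well placed. TATAAA on the strand of the gene, with its first base 20 to 40 bases before the start, was found in 18 of 59 promoters (30.5%), against 2.53% of all promoters. In 10 of them it began exactly 29 bases before the start, among them all 7 of Sprr2b, Sprr2d, Sprr2e, Sprr2f, Sprr2h, Sprr2i and Sprr2k. Of the 18, 16 belonged to genes with no start peak and 2 to genes with one (S100a4 and Ivl), while 40 of all 59 promoters belonged to genes with no start peak. The window was chosen after the peaks were seen, and TATAAA at Sprr1a (43 bases before the start) fell just outside it. Anywhere in the promoter and on either strand, TATAAA was in 5 of 19 promoters of genes with a start peak. It was in 19 of the 40 others, and this difference was not tested. Within the window of 20 to 40 bases, it was in 9 of 14 Sprr, 2 of 20 Lce, 2 of 6 S100-fused and 3 of 16 S100a promoters. For Lor, Ivl and Smcp it was in 2 of 3.

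An AP-1 motif, TGANTCA, lay in 18 of 59 promoters (30.5%), against 6.99% of all promoters. AP-1 factors of the Jun and Fos families are known regulators of involucrin, loricrin and Sprr genes. The motif was present in 9 of 14 Sprr promoters, 4 of 6 S100-fused promoters, 3 of 16 S100a promoters and 0 of 20 Lce promoters, and in 2 of 3 for Lor, Ivl and Smcp. Sprr1a had 2, beginning 146 and 116 bases before the start, Ivl 1 at 116, S100a11 2 at 136 and 38, Lor 1 at 48 and Flg 1 at 103. Of the 19 promoters of genes with a start peak 4 held the motif, and of the 40 of genes without one 14 did. The forkhead motif TGTTTAC, of the family of Foxc1, was in 3 of 59 promoters (5.08%) against 3.01% of all, with 1 in the Flg promoter shown. CCAAT was in 25.4% against 38.2%, Kruppel-like motifs in 13.6% against 31.7% and the p53 family core in 5.08% against 4.23%.

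**Figure D5:**
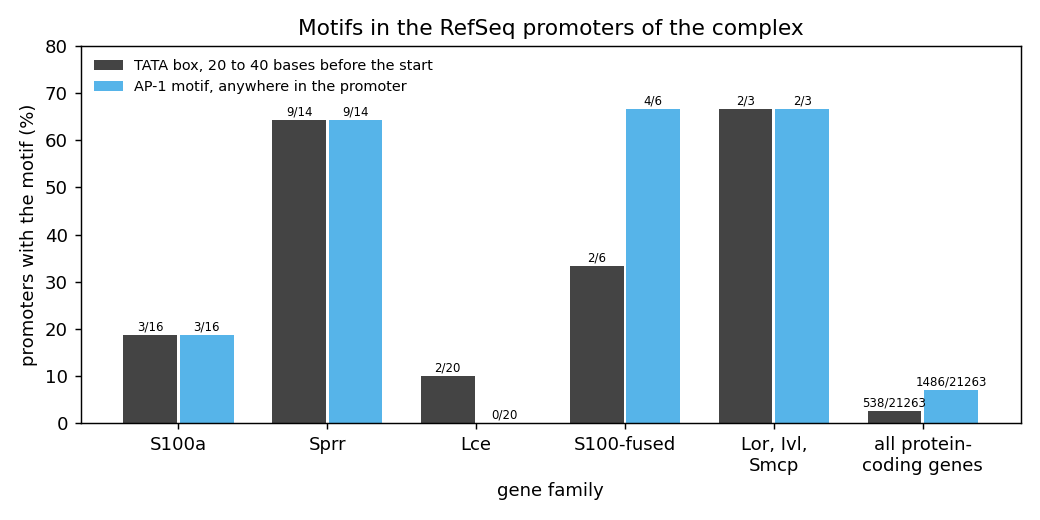
Bars give the percentage of RefSeq promoters with TATAAA starting 20 to 40 bases before the start (dark) or with TGANTCA anywhere on either strand (light), by family and for all protein-coding genes, with counts above. Sprr promoters have each in 9 of 14 and Lce promoters have the AP-1 motif in 0 of 20, while all promoters have 2.53% and 6.99%.

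Genes of cornification that lie elsewhere in the genome stood near the background. Of 27 such genes, 15 (55.6%) had an end peak, and 18 (66.7%) a peak at the gene or within 1 kb. Among the 46 members that are not S100a genes the counts were 11 and 12. Median gene length was 14.1 kb for the 27 genes and 1.70 kb for the 46 members. The difference in peaks was not tested. Abca12, the lipid transporter of lamellar granules, had 15 peaks, and Tgm1, the transglutaminase that cross-links the envelope, had 1, on its start. Casp14, Dmkn, Lgals7 and Sbsn had start peaks too. Krt1, Krt10 and Krt2, keratins of the layers above the basal one, had 0 at the gene, as did Alox12b, Cnfn, Cst6, Klk5, Klk7 and Krtdap.

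Genes of factors that act on the complex were almost all open. Of 20 regulators, 19 (95.0%) had an end peak and 20 had a peak at the gene or within 1 kb, against 57.6% and 68.7% of all protein-coding genes. They included the AP-1 genes Jun, Junb, Fos, Fosl1 and Fosl2, the barrier regulators Klf4 and Grhl3, and the chromatin genes Satb1, Smarca4 and Ezh2. Trp63, which encodes p63, was the exception at its ends, with 10 peaks in all. In this list, factor genes with peaks thus stood beside Sprr, Lce and S100-fused genes that mostly had none.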

How the data were processed

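Foxc1 knockout and control hair follicle stem cells (1 library each, 2 runs per genotype, 4 runs) were profiled by ATAC-seq. The deposited file is 1 list of 74777 regions, with chromosome, start and end and no other value, such as a score or count. The submitters' processing notes name mm10, Bowtie2, MACS2 and bedtools. The sources used here do not give settings, duplicate and multi-mapping filters, any Tn5 offset, or whether peaks were called on pooled reads. Starts were made 1-based. Unused columns of samples numbered 0.

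Gene bounds, starts and promoter sequences came from RefSeq tables of GRCm38.p6, the build of mm10. Peaks were counted by overlap of at least 1 base with a gene, its ends or its starts, with windows of 1 kb. Peaks sharing no base with a member were put in intervals by midpoint. Density used midpoints. Promoters (250 bases before to 50 after a start) were aligned globally with Biopython 1.88. The TATA window, the comparison of peaks between Sprr2a copies and the ground outside genes were chosen after the peaks were seen. Counting was tested on simulated peaks at 200 gene ends. Members, lists and windows were chosen with earlier results of these data known, and all are described without tests. Described most fully were the members with most peaks, the fullest intervals, the longest peak-free stretches and the widest peaks.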

Additional observations from a re-analysis of the deposited data

How the results depend on the processing

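No paired analysis was possible because the regions carry no run or genotype, and leaving out single runs could not be done for the same reason. Protein identity, which had also been planned, was not computed. Of 46 alternative values over 13 results, 40 stayed within 1.5 times the value reported and 6 did not. With a window of 5 kb around the start, 24 members had a start peak instead of 15, and with 5 kb added to each gene the median number of peaks at a member became 1 instead of 0. With only peaks at least as wide as the list's median, 16 members had a peak at the gene or within 1 kb instead of 25, 45 peaks lay between members instead of 112, and the longest stretch without a peak was 659.5 kb instead of 318.5 kb. The ratio of the S100a1 to S100a9 block to the genome was 6.81 by bases covered instead of 3.98 by peaks. The count of members with an end peak ranged from 15 (wide peaks) to 30 (windows of 5 kb), and all protein-coding genes on chromosome 3 had end peaks in 66.7% of cases. Density from Lor to S100a10 kept a ratio of 2.40 to 2.71, including when it was ended at Tchhl1, an alternative added after the data were seen. The shifts in counts and in the longest stretch follow from the wider window or the smaller set of peaks that defines each alternative, and the higher ratio by bases covered from the width of the peaks in that block.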

Other observations

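Inside the span lie 9 protein-coding genes that are not members, and 4 of them had a peak within 1 kb of an end. Pglyrp3, a peptidoglycan recognition gene, had 4 peaks, the widest of them 2191 bp, while its relative Pglyrp4 had 0. Crnn, the gene of the S100-fused protein cornulin, had 1 peak of 948 bp that overlaps its lower bound, unlike the named S100-fused genes, of which 0 of 6 had an end peak. Prr9 and 2310050C09Rik had 1 each, at their annotated starts. Gm36323, Gm35185, Lelp1 and Tdpoz8 had 0. The S100 genes of other chromosomes, S100b, S100g and S100z, had 0 peaks at the gene or within 1 kb, with starts 15524, 14368 and 5958 bp from the nearest peak, whereas 13 of 15 S100a genes had a peak there.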
